A study of Mus musculus with 26 samples.

Results

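Of 23 inguinal clones of immortalized mouse adipose cells, 3 carried the letter E in their names (E1, E3 and E4), and these 3 were set against the other 20. The series held 26 clones, and the 3 interscapular ones were left out of the comparison. Every clone was an immortalized clonal line of strain 129SVE from Taconic, fully differentiated and given forskolin for 4 h before its total RNA went on 1 Affymetrix array. The E clones and the others shared strain, depot, differentiation and treatment, and no untreated array was analysed here. The labels disagree on whether the forskolin dose was millimolar or micromolar, and the treatment of a given clone was not checked otherwise. The labels do not say what the letters stand for. With 1 array per clone, each p-value describes the spread among clones and not between cultures of a clone.

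Fat cell precursors leave the cell cycle and switch on Pparg and Cebpa, the transcription factors that turn on genes for lipid storage, and beige clones of inguinal fat can also switch on Ucp1, the uncoupling protein of heat production. Forskolin activates adenylyl cyclase, and the cyclic AMP it makes acts through protein kinase A on the transcription factor CREB. Among the targets of this pathway are early-response genes such as Fos and the Egr family, whose transcripts appear quickly after a stimulus and fade again.

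Every level below is log2(intensity + 16), so that differences understate the change of dim genes, and differences are E minus other in log2 units. The adipocyte genes Fabp4 and Adipoq were bright in all 3 E clones, at 12.93 to 14.27 and 11.47 to 13.77. Hoxc10, a posterior homeobox gene that marks inguinal against interscapular cells, stood at 10.51, 10.40 and 10.05 in E1, E3 and E4 and at 9.40 to 10.74 in the others (median 9.99). The 8 marker lists of other cell types had only 4 to 12 measured members each. None had more than 1 member that differed at an unadjusted p under 0.05, a level reached by 7.97% of all genes. With so few members, this count cannot tell whether other cells were present. Of the endothelial markers on the array 8 of 12 fell below the filter on low values, and of the epithelial ones 12 of 17. For leukocytes, 8 of 17 markers on the array passed the filter on low values, and their mean level was 6.97 to 7.44 in E against 6.71 to 7.66. All 3 E arrays shared scan session 1, scanner 1, chip lot 3 and fluidics station 3. Of the other clones 7 shared session, scanner and lot with them (A5, B5, B13, D12, F4, F9 and G10), and F4 alone shared the station. Array quality was alike, with an actin 3'/5' log2 ratio of 0.43 to 0.46 in E against 0.24 to 0.99, but F4 had the highest Gapdh ratio (1.61 against -0.16 to -0.06 in E). What the shared station contributes therefore cannot be told apart from the letter except through F4.

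No gene passed an adjusted p of 0.05 between the E clones and the others (limma, 0 of 12605 genes, 0%), and the lowest adjusted p was 0.0824. At an unadjusted p under 0.05 there were 1005 genes (7.97%), 602 higher in E (4.78%) and 403 lower (3.2%). The 3 E clones all lay above all 20 others in 40 genes (0.317%) and all below them in 11 (0.0873%). Counts at adjusted p 0.05 were 0 to 5 in all other settings but one: with array weights from limma 1514 genes passed, where E1 had the largest weight of the 23 arrays (4.21). The genes below therefore did not pass the main test, and they are described by their values.

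Egr1 (-3.11) and Arc (-2.57), both early-response genes, had the largest differences below 0 of the 12605 genes. Genes of other kinds came next, such as Armh4 (-2.24), the heat-shock gene Hspa1a (-2.13), the calcium-binding protein gene S100a8 (-2.06) and the chemokine receptor gene Ccr1 (-1.86), named here after their values were seen. Egr1, a zinc finger transcription factor of this kind, stood at 8.97 in E1, 9.01 in E3 and 8.90 in E4, against 9.54 to 13.38 in the others (median 12.57). In intensity this was 484, 500.0 and 463 against a median of 6062. All 3 E clones lay below all 20 others and within 0.11 log2 units of each other. The difference was -3.11 ± 0.66 (SE, n = 3 and 20), or 8.66-fold, with a limma adjusted p of 0.235. The others were themselves spread, and A3 (9.54), A5 (9.64), N13 (10.29) and J6 (10.81) came closest. Among the 7 clones that shared session, scanner and lot with E, Egr1 ran from 9.64 (A5) to 13.25 (F4), with a median of 12.68, while 6 of these 7 arrays ran on other fluidics stations than E. Within these arrays the limma adjusted p of Egr1 was 0.266, and within chip lot 3 it was 0.202. A3 and A5 held the lowest Egr1 of the others, so leaving them out by itself widened the difference (-3.39 ± 0.50). Egr1 passed the test with scan session as a block (limma adjusted p = 0.0422), within scan session 1 (0.0277, 3 against 14 clones) and, with the difference so widened, without A3 and A5 (0.00701). It did not pass with the scanner (0.41), the chip lot (0.2) or the fluidics station (0.367) as a block. The station block, which rests on F4 alone, gave -4.29 for Egr1 and -4.51 for Fosb, described next.

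**Figure D1:**
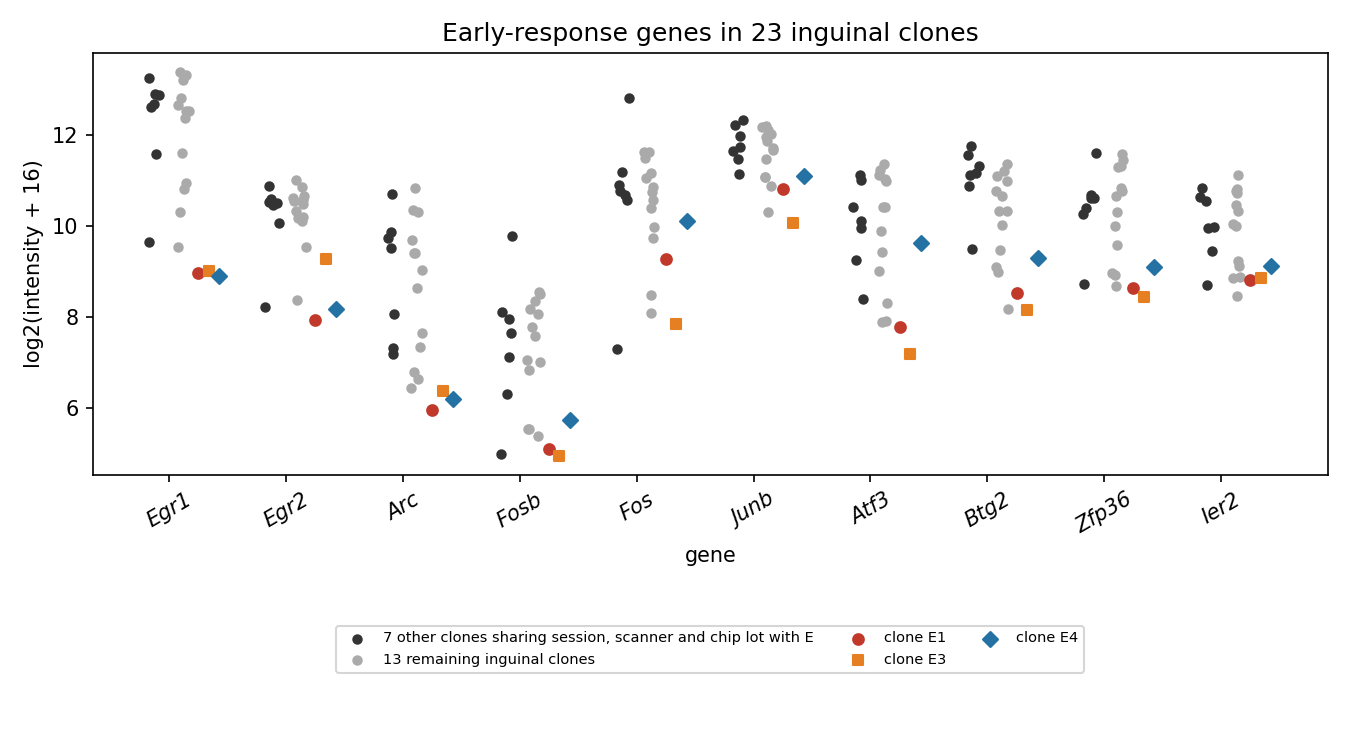
Level, log2(intensity + 16), of 10 early-response genes in 23 inguinal clones, with 1 point per clone. The dark points are the 7 other clones that share session, scanner and chip lot with the E clones, the grey points the 13 remaining ones, and the coloured symbols E1, E3 and E4. In Egr1 and Arc all 3 E clones lie below every other clone, while in Fos and Atf3 clone E4 lies within the range of the others.

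Other early-response genes differed from the rest to unequal degrees, and those beyond Egr1, Egr2 and the members of the forskolin list were chosen after their values were seen. Arc, known from neurons as an activity-dependent gene, was at 5.95, 6.38 and 6.20 in E1, E3 and E4 against 6.42 to 10.83 (median 9.21), below all others by a narrow gap to A3 (-2.57 ± 0.78, limma adjusted p = 0.468). Egr2, a relative of Egr1 that acts early in fat cell formation, was at 7.93, 9.27 and 8.16 against 8.22 to 11.01 (median 10.49). Here E1 and E4 lay below all others, and E3 within their range (-1.77 ± 0.42, limma adjusted p = 0.399). Its second probe set gave -2.18.

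Fosb, a subunit of the AP-1 transcription factor, was at 5.08, 4.94 and 5.74 against 4.98 to 9.77 (median 7.61). E3 lay just below all others and the groups overlapped in E1 and E4 (-2.05 ± 0.68). In intensity Fosb was at 17.9, 14.8 and 37.3 in E1, E3 and E4, below their array medians (43.5, 42.0 and 43.3). Its sizes, also with the station block, are therefore approximate. Junb, another AP-1 subunit, was at 10.80, 10.07 and 11.10 against 10.31 to 12.32 (median 11.72), and Fos itself at 9.26, 7.83 and 10.12 against 7.29 to 12.81 (median 10.75). Junb differed by -0.99 ± 0.31 and Fos by -1.43 ± 0.73. Limma adjusted p was 0.468 for Junb and 0.653 for Fos.

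Atf3, a stress-induced transcription factor of the CREB family, separated the E clones, with 7.77 in E1 and 7.18 in E3, both below all others (7.88 to 11.36, median 10.26), and 9.63 in E4, which was within them. Btg2, an antiproliferative p53 target, was at 8.52, 8.15 and 9.29 against 8.18 to 11.74 (median 10.82). Zfp36, which destabilizes AU-rich messenger RNAs, was at 8.63, 8.44 and 9.10 against 8.67 to 11.61 (median 10.61). In both genes the groups overlapped, and the differences were -1.83 ± 0.54 and -1.64 ± 0.52. Ier2 (-1.01), Egr3 (-0.85), Nr4a1 (-0.79), Dusp1 (-0.48) and Jun (-0.46) had smaller differences, each with all E clones within the range of the others. A dim second probe set of Egr3 gave 0.42, and E1 ranked 11 of 23 for Jun. Clones A3, A5, N13 and J6 made up the 4 lowest of the 20 others for Egr1, Arc, Fos, Fosb and Zfp36, so low early-response genes were not found in the E clones alone.

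The promoters of 4 of these genes are shown because they carry letters of the cAMP response element, to which CREB binds. The sequences are RefSeq promoters (GRCm38.p6), from 250 bases before to 50 after the annotated start: Egr2 at chr10:67537619-67537918 on the + strand (the middle one of 5 listed starts), Fosb at chr7:19309996-19310295, Junb at chr8:84978699-84978998 and Atf3 at chr1:191183284-191183583, all on the - strand. Capitals mark the half-site TGACG on the gene's strand or, read on the other strand, CGTCA.
Egr2: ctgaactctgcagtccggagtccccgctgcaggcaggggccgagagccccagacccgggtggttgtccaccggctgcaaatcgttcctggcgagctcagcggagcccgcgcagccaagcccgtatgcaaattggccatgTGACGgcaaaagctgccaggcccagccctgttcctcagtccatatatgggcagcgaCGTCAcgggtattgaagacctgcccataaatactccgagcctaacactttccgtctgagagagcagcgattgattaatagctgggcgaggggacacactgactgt
Fosb: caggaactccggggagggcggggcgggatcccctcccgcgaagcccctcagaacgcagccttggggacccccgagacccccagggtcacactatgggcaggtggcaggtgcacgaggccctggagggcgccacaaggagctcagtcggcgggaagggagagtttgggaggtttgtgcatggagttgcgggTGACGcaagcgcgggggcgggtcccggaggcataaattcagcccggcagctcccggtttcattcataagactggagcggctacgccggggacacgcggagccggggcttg
Junb: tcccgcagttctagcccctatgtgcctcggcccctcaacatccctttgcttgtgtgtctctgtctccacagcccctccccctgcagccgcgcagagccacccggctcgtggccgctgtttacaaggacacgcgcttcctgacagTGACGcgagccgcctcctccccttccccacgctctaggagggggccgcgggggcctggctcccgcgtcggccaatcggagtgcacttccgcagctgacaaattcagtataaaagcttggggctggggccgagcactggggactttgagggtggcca
Atf3: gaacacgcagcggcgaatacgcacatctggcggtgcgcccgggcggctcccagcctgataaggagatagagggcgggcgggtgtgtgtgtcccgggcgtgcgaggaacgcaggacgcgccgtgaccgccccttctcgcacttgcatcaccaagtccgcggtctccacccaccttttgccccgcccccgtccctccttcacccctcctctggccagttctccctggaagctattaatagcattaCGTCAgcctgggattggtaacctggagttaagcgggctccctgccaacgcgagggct
Egr2 held 2 half-sites, starting 111 and 55 bases before the start, Fosb 1 at 60, Junb 1 at 106 and Atf3 1 at 7. None of the 4 windows held the full element TGACGTCA. Of the 13 early-response genes named here besides Egr1, 10 were found in the table, and 2 of these (Jun and Zfp36) held no half-site in this window. The other 8 held a half-site, and 2 of them that are not printed, Btg2 and Dusp1, each held 1 full element. Over all 32851 promoters of this length, 20.8% held a half-site and 1.79% the full element on either strand. The 4 were chosen for holding a half-site, so these shares are given as background only. A match describes the letters and says nothing of binding in these cells.

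Of 28 listed forskolin and cAMP targets, 26 passed the filter, and 4 of them stood lower in E at an unadjusted p under 0.05 (Fosb, Junb, Nr4a1 and Atf3) and 0 higher, or 15.4% in either direction against 7.97% over all genes. None passed the adjusted test, and the median difference of the list was -0.36, against 0.02 over all genes. Of the 26 differences 8 were above 0 and 18 were not. The median was -0.18 without E3, -0.16 with scanner as a block and 0.04 with fluidics station as a block. Crem, which encodes the cAMP-inducible repressor ICER, was at 11.49, 10.76 and 11.68 in E1, E3 and E4 against 9.77 to 11.79 (median 11.04). Pde4b, a phosphodiesterase that breaks down cyclic AMP, was at 11.41, 11.16 and 11.52 against 10.50 to 11.68 (median 11.01), and Pde4d at 10.88, 10.49 and 10.80 against 9.63 to 10.96 (median 10.44). These 3 genes were chosen for their higher values after these were seen. Of the adrenergic and protein kinase A genes, 19 measured, 1 stood higher (the adenylyl cyclase Adcy6, 0.44 ± 0.15) and 1 lower (Rgs16, a G protein regulator, -0.98 ± 0.47) at an unadjusted p under 0.05, and the median difference was 0.02.

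Besides the early-response genes, 8 genes made up the most extreme moderated t values. Ppp1r35, a centrosomal protein, was at 8.23, 8.35 and 8.39 in E1, E3 and E4 against 7.366 to 8.002 in the others (median 7.61). All 3 E clones lay above all others, and the difference of 0.69 ± 0.12 gave the lowest adjusted p of all genes (0.0824, limma). Slc6a15, a transporter of neutral amino acids, was at 6.88, 7.30 and 6.82 against 4.75 to 6.50 (median 5.37), again without overlap (1.46 ± 0.27, limma adjusted p = 0.098). Slc6a15 lay above the array median in 4 of the 20 others and in all 3 E clones, so its size rests on dim signal in the others. Ppp1r35 passed with pseudocount 64, with the mean of all probe sets, with scan session as a block and without A3 and A5, and Slc6a15 with pseudocount 64 and with scan session as a block. A3 (7.86) and A5 (7.96) were among the highest of the others for Ppp1r35.

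Larp6, an RNA-binding protein of collagen messenger RNAs, was at 9.54, 8.82 and 9.63 against 7.44 to 9.23 (median 8.27), with E3 inside the range of the others. Me2, the mitochondrial malic enzyme, was at 9.19, 8.96 and 9.16 against 7.64 to 9.02 (median 8.27), and its 3 dimmer probe sets gave 0.60 to 0.71 against 0.83 for the one used. Gfpt1, the entry enzyme of the hexosamine pathway, was at 12.12, 11.75 and 11.90, above all others (10.86 to 11.72). Larp6 differed by 1.04 ± 0.25 and Gfpt1 by 0.68 ± 0.16, each with a limma adjusted p of 0.399. A dimmer probe set of Larp6 gave -0.17, and those of Gfpt1 -0.02 to 0.42.

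Notch1, the receptor of cell-to-cell signalling, was at 6.71, 7.22 and 6.81 against 7.42 to 8.86 in the others (median 7.93), below all of them (-1.07 ± 0.24, limma adjusted p = 0.322). Its other probe set gave -1.01. Fli1, an ETS transcription factor, was at 4.68, 5.57 and 4.79 against 5.45 to 7.17 (-1.28 ± 0.27), and 1700007K13Rik at 4.93, 4.99 and 4.80 against 5.25 to 7.50 (-1.34 ± 0.29). Both lay below the array median in all 3 E clones, so that these sizes are approximate, and a dimmer probe set of Fli1 gave -0.13. 1700007K13Rik passed with scan session (limma adjusted p = 0.0422) and with chip lot (0.0122) as a block. Atp6v0a1, a subunit of the proton pump of acidic organelles, was at 6.93, 7.27 and 6.78 against 7.01 to 8.75 (-1.01 ± 0.25). It was chosen after its values were seen, and it passed with scan session as a block (limma adjusted p = 0.0422) and within scan session 1 (0.0391).

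**Figure D2:**
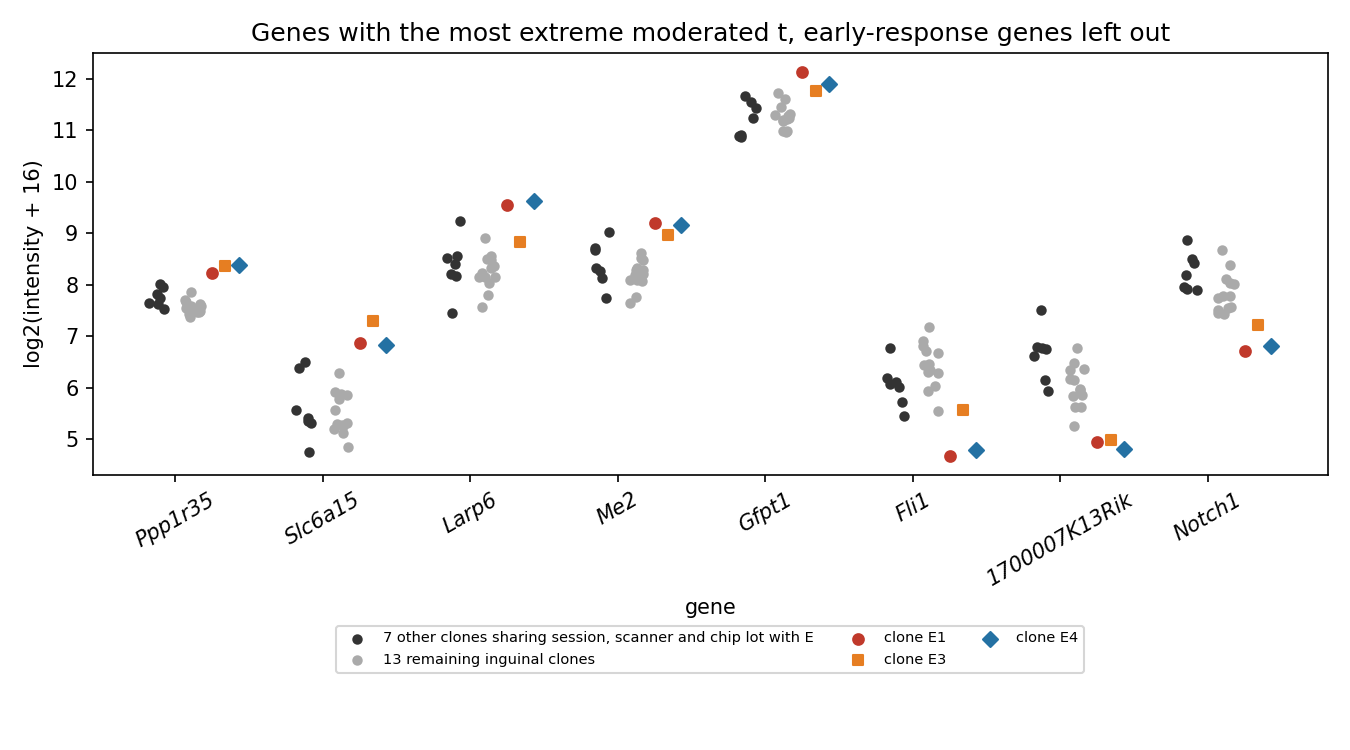
Level, log2(intensity + 16), of the 8 genes with the most extreme moderated t besides Egr1 and Egr2, with 1 point per clone and symbols as in the plot of early-response genes. All 3 E clones lie above every other clone for Ppp1r35, Slc6a15 and Gfpt1 and below every other clone for 1700007K13Rik and Notch1.

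The 40 genes in which all E clones stood above all others did so mostly by small margins. The gap between the lowest E clone and the highest other clone was over 0.1 log2 units in 9 genes and reached 0.32 in Slc6a15. Uaca, an apoptosis-linked protein whose gene neighbours Larp6, was at 10.05, 9.86 and 9.88 against 7.83 to 9.59, a gap of 0.28. Col16a1, a fibril-associated collagen, was at 11.46, 11.33 and 11.09 against 9.31 to 11.02 (1.02 ± 0.28). Among the 11 genes below all others were Pmvk, an enzyme of cholesterol synthesis (7.42, 7.28 and 6.998 against 7.48 to 9.12), the peptide transporter subunit Tap1 (8.02, 7.96 and 8.22 against 8.31 to 9.17) and the homeobox gene Msx1 (6.82, 6.79 and 6.83 against 6.91 to 8.01). These 5 genes were chosen after their values were seen.

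The E clones did not share a degree of differentiation. The mean level of 24 measured adipocyte genes (of 30 listed) was 8.98 in E1, 8.50 in E3 and 9.97 in E4, against 7.56 to 10.79 in the others (median 9.81). E4 ranked 8 of 23, E1 16 and E3 20. Pparg, the master regulator of fat cell formation, was at 9.14, 8.68 and 10.37 against 7.39 to 11.13 (median 9.90). Cebpa was at 10.39, 9.60 and 11.38 against 7.98 to 12.59 (median 11.07), and the fatty acid transporter Cd36 at 10.15, 9.29 and 12.08 against 7.02 to 12.22 (median 11.06). In each of these genes E4 lay above the median of the others and E1 and E3 below it. Not every member had E4 above that median: in Mgll E4 was at 9.935 against a median of 10.371. None of the 24 passed the adjusted test, and the list's median difference was -0.32. At an unadjusted p under 0.05, 1 stood lower (the glycerol channel Aqp7), or 4.17% against 7.97% over all genes. Aqp7 was at 5.195, 4.758 and 4.490 in E1, E3 and E4 against a median of 5.563, with E4 the lowest of the 3.

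The 10 genes with the largest range among the 3 E clones gave the same order in most cases. Mrap, an accessory protein of the ACTH receptor that is switched on in fat cells, was at 6.72, 5.67 and 9.32 in E1, E3 and E4 against 4.49 to 9.53 in the others. Adig, an adipogenin, was at 6.98, 6.31 and 9.68, the hormone resistin (Retn) at 6.16, 5.91 and 9.24, and the acute-phase protein Orm1 at 7.53, 5.71 and 9.98. B3galt2, a galactosyltransferase, had the largest range, from 4.45 in E3 to 8.79 in E4, below and above all others (4.52 to 8.55). E4 was the highest of the 3 in 9 of the 10 genes, the exception being Pgf, an angiogenic factor highest in E1 (9.55). AW112010, Wfdc12, the complement gene C2 and the BMP antagonist Chrdl1 made up the rest.

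Ucp1 followed the same order and did not separate the E clones from the others. It was at 5.67 in E1, 4.66 in E3 and 7.27 in E4, against 4.74 to 7.55 in the others (median 5.69). E4 ranked 3 of 23, E1 12 and E3 23, so that these clones held both the lowest and the third highest level. The difference was -0.03 (two-sided exact permutation test over 1771 splits, p = 0.993), and it turned with the E clone left out, from -0.73 without E4 to 0.57 without E3. In intensity Ucp1 exceeded its array's median in 1 of the 3 E clones and in 8 of the 20 others. Ppargc1a, a coactivator of mitochondrial and thermogenic genes, was at 6.81, 6.64 and 9.18 against 5.63 to 10.07 (median 8.61). Of the 16 measured thermogenic genes, the median difference was -0.03.

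**Figure D3:**
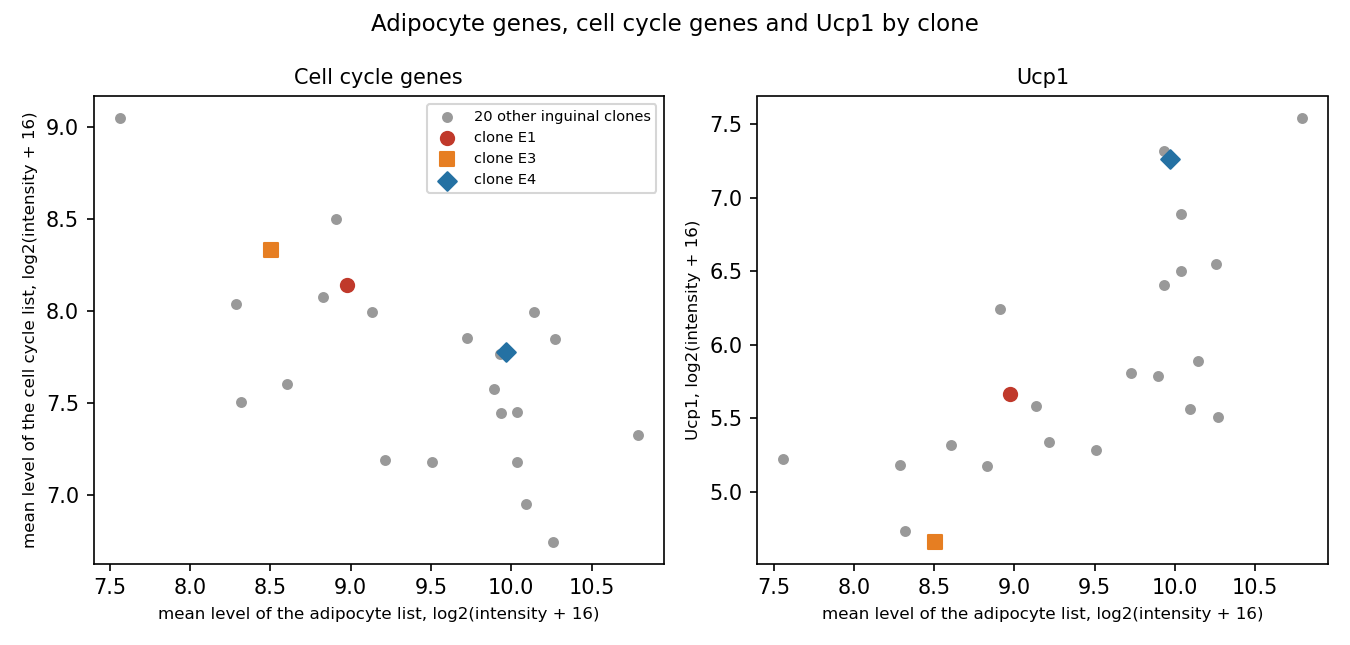
Mean level of the adipocyte list against the mean level of the cell cycle list (left) and against Ucp1 (right), all as log2(intensity + 16), with 1 point per clone. E4 lies among the clones with high adipocyte genes and high Ucp1, while E1 (8.98) and E3 (8.50) lie in the lower part of the adipocyte axis.

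The mean level of 37 measured cell cycle genes was 8.14 in E1, 8.33 in E3 and 7.78 in E4, against 6.74 to 9.05 in the others (median 7.59), with ranks 4, 3 and 11. At an unadjusted p under 0.05, 3 of the 37 stood higher and 0 lower, or 8.11%, close to the 7.97% over all genes. None passed the adjusted test, and the median difference was 0.38. Cdk1, the kinase of mitotic entry, was at 10.72, 10.74 and 10.25 against 8.81 to 10.94 (median 9.71). Of 18 cell cycle inhibitors and p53 targets, 6 stood lower at that level (Mdm2, Ccng1, Trp53inp1, Sesn2, Btg2 and Plk2) and 1 higher (Cdkn1b), with a median difference of -0.24. That is 38.9% of the list in either direction, against 7.97% over all genes. Cdkn1a, a cell cycle inhibitor induced by p53, was at 13.04, 12.90 and 12.92 against 12.01 to 13.63 (median 13.18). Its difference was -0.185 ± 0.24, and its other probe set gave 0.135. Ccng1, a cyclin induced by p53, was at 12.32, 12.20 and 12.02 against 12.04 to 13.46 (median 12.74). Among the 3 E clones, the mean of the smooth muscle and pericyte markers had the order of the cell cycle list. It was 8.02 in E1, 8.16 in E3 and 7.69 in E4 against 6.65 to 8.34 (12 of 14 markers measured). In other clones these means could part, as in A5 (cell cycle 8.075, smooth muscle 6.955) and G12 (7.452 and 8.137). The part of these markers in the results was not tested.

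The mean level of the interferon-response genes ranked 13 of 23 in E1, 21 in E3 and 20 in E4, and that of the chemokines and cytokines 19, 22 and 15. Of 36 interferon-response genes 5 stood lower at an unadjusted p under 0.05 (Irf1, Rsad2, Ifi35, Ifih1 and Cmpk2) and 0 higher, or 13.9% against 7.97% over all genes (3.2% lower), and the list's median difference was -0.27. Irf1, a transcription factor of the interferon response, was at 8.93, 8.57 and 8.93 against 8.83 to 10.70 (median 9.70). Cxcl10, an interferon-induced chemokine, was at 10.42, 8.66 and 10.24 against 10.13 to 12.76 (median 11.37), with E3 alone below all others (-1.55 ± 0.38, limma adjusted p = 0.399). Of 27 chemokines and cytokines, 4 stood lower (Ccl2, Cxcl2, Cxcl10 and Csf2) and 1 higher (Tnfsf9), or 18.5% in either direction. None of either list passed the adjusted test. Csf2, a growth factor of granulocytes and macrophages, was at 5.94, 6.45 and 6.98 against 5.33 to 10.98 (median 8.57).

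The lists of sterol, Hox and BMP genes are read against 7.97% of all genes at an unadjusted p under 0.05, 4.78% higher and 3.2% lower. Of 18 cholesterol synthesis genes 3 stood lower at an unadjusted p under 0.05 (Dhcr7, Pmvk and Msmo1), or 16.7%. The median difference was -0.29, and 0.06 with fluidics station as a block. The list mean was 7.99, 7.85 and 8.03 against 7.82 to 9.02, with ranks 20, 22 and 19. Of 22 measured Hox genes 4 stood higher (Hoxa3, Hoxc4, Hoxc5 and Hoxc9) and 0 lower, or 18.2%, with a median difference of 0.29 and list ranks of 4, 3 and 6. Hoxc4 was at 9.76, 9.86 and 9.28 against 7.24 to 9.50 (median 8.90), and Hoxa3 at 7.53, 7.54 and 7.87 against 6.51 to 7.54 (median 6.998). In the BMP and TGF-beta pathway 5 of 35 genes stood higher and 1 lower, or 17.1%. The differences of 18 of the 35 were above 0, and their median was 0.04. The lower one was the BMP antagonist Nog, at 4.83, 4.73 and 4.88 against 4.75 to 6.07. In intensity Nog was dim in E (12.4, 10.6 and 13.5), below the array median in all 3 clones. Bambi, a pseudoreceptor that dampens this signalling, was at 10.42, 10.53 and 10.49 against 7.92 to 10.57 (median 9.58). No member of these lists passed the adjusted test.

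**Figure D4:**
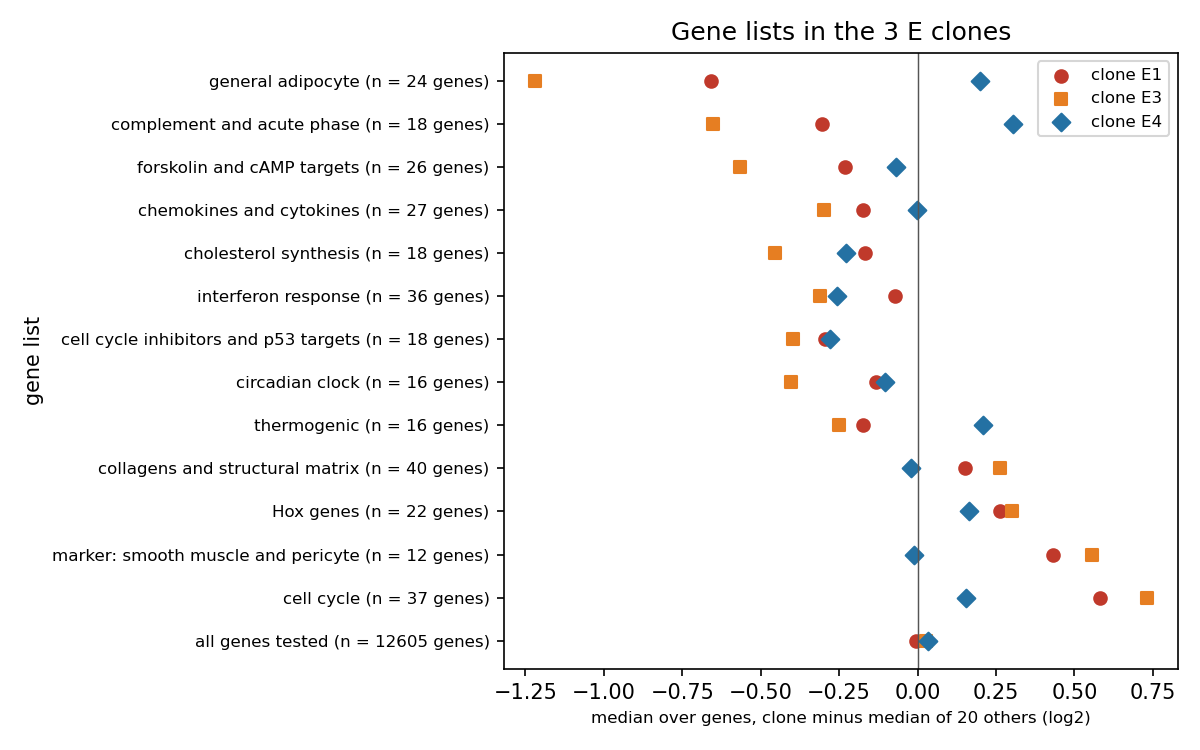
Median over the genes of 13 lists, and over all genes tested, of each E clone's level minus the median of the 20 others, in log2 units, with n the number of genes. E4 lies apart from E1 and E3 in the adipocyte list (0.20 against -0.66 and -1.22), while the 3 clones lie together in the list of cell cycle inhibitors and p53 targets (-0.28 to -0.40).

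Across all genes the E clones resembled each other unequally. The Pearson correlation of gene-centred profiles over 12605 genes was 0.53 between E1 and E3, the highest of all 253 pairs of inguinal clones. It was 0.31 between E1 and E4 and 0.08 between E3 and E4. The mean of these 3 pairs was 0.31, against 0.39 for the A pair, 0.28 for the M pair, 0.24 for the B pair, 0.17 for the D pair, -0.07 for the F pair, and means of 0.07 for the 3 X clones and 0.06 for the 4 G clones. Pairs of an E clone with any other clone had a median of -0.12 (60 pairs), and other pairs of different letters -0.05 (176 pairs). The correlations are across genes, which are not independent replicates, and the E arrays share batch. Pairs of different letters from the same session, scanner and lot had a median of -0.01 (48 pairs), and F4, on the station of the E arrays, correlated at 0.10 with E1, 0.18 with E3 and -0.18 with E4. With the arrays of the shared session, scanner and lot only, and each gene centred on their 10 arrays, the mean over the E pairs was 0.17. The nearest clone was E3 for E1, and E1 for both E3 and E4. Second came clones of other letters: J6 for E1 (0.38, ahead of E4), I2 for E3 (0.36) and D12 for E4 (0.22). E3 and E4 were thus each nearer to some clones of other letters than to each other.

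**Figure D5:**
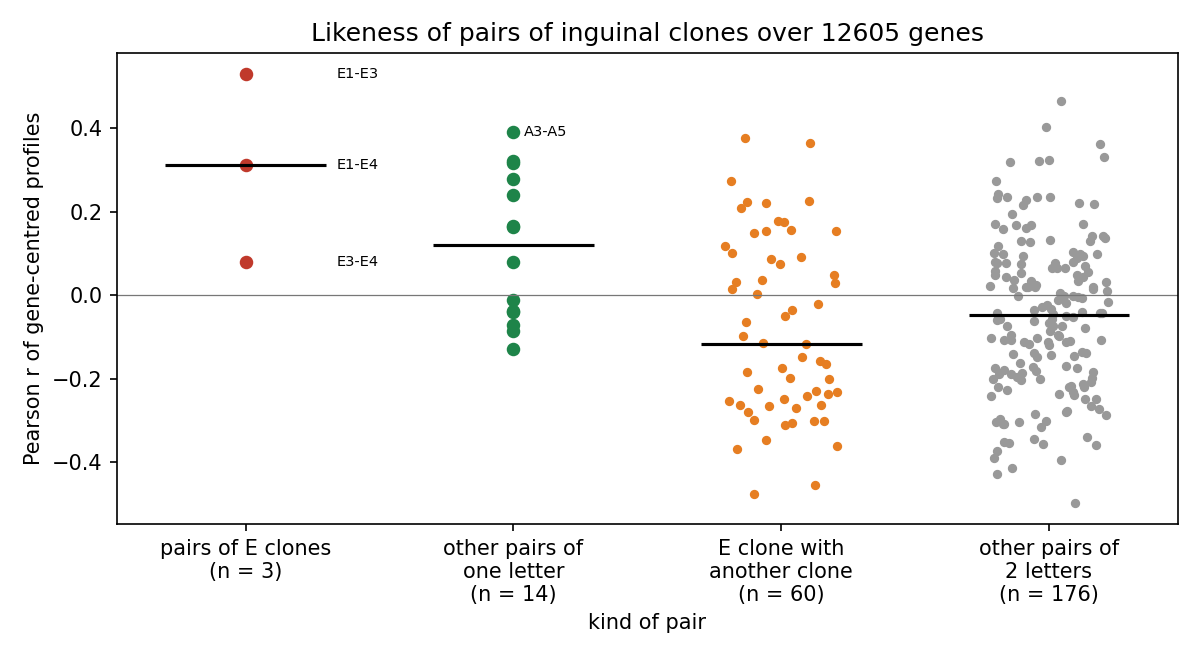
Pearson correlation of gene-centred profiles over 12605 genes for the 253 pairs of inguinal clones, with 1 point per pair and a line at the median of each kind. The pair E1 and E3 has the highest value (0.53), while E3 and E4 (0.08) lie within the range of other pairs.

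Each E clone also had genes of its own. E4 stood apart in Wt1, a transcription factor of mesothelium and visceral fat, at 10.11 against at most 9.06 in the other 22 clones (E1 8.21, E3 7.69), in Slc2a3, a glucose transporter, at 11.18 against at most 10.34, and in Birc2, an inhibitor of apoptosis, at 10.41 against at most 9.60. It was lowest in the interferon-inducible Ifi209 (4.14) and the adhesion protein Tenm3 (5.32). E3 was highest in Creb3l3 (6.80 against at most 6.26), in Sipa1 and in the retinoic acid receptor Rarb (6.50 against at most 6.03), and lowest in Cxcl10. E1 was highest in Ppp1r3c, a glycogen-targeting subunit of protein phosphatase 1 (12.65 against at most 12.25, a level reached by E4), and lowest in the chemokine receptor Ccr1 (5.50) and the glutathione transferase Gsta3 (8.35 against at least 8.91). In all, 442 genes in E1, 659 in E3 and 676 in E4 lay beyond all other 22 clones, ranks 20, 17 and 15 of 23, where the other clones had 249 to 2882.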

How the data were processed

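The value table that the authors deposited gives, for 26 arrays, a linear intensity for each probe set. Probe summary and array scaling are not given in the sources used here. Scan session, scanner, chip lot and fluidics station came from each array's experiment file, per the file headers of the deposited files, with sessions built by joining nearby scan dates. The platform annotation gave 1 gene symbol to 34945 of 45101 probe sets, several to 932 and none to 9160, and 64 were controls. Probe sets with several symbols or none were left out, and 34741 matched a RefSeq gene table (GRCm38.p6, names and gene order only).

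For each of 18193 genes the brightest probe set, by its mean over the 26 arrays, was used. Log2 values were computed as log2(intensity + 16) from the deposited intensities, with no further scaling. The 12605 genes above the median of their array in at least 3 inguinal arrays were fitted by lmFit and eBayes (limma 3.58.1 under R 4.3.3), and two-sided p-values were adjusted by Benjamini-Hochberg over these genes. Ucp1 was compared with an exact permutation test (scipy 1.17.1). Lists are described by counts and medians, and likeness by Pearson correlation of profiles centred on the mean of the 23 inguinal arrays.

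The members and the lists were chosen with earlier results of these data known. Named genes were the 5 with the most extreme moderated t each way, Ucp1, list members, the 10 with the largest range among the E clones, and for each E clone the 5 farthest beyond the other 22 clones each way. Genes outside this rule are said to be chosen after their values were seen. On simulated arrays of 12605 independent genes, the fit recovered 69 of 100 genes planted with a difference of 1 and 94 of 100 with a difference of 2, with 13 false calls. The alternatives covered scaling, pseudocount, probe set rule, filter, batches, array weights, differentiation and left-out clones. No 2 arrays were identical. Figures were drawn with matplotlib 3.10.9.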

Additional observations from a re-analysis of the deposited data

How the results depend on the processing

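The count of genes called between E and other inguinal clones was 0 in the main setting. It was also 0 with median scaling, quantile normalization, pseudocount 1, the probe set with the highest SD, no filter, the stricter filter, all 26 arrays, trend and robust eBayes, scanner or fluidics station as a block, within scanner 1, within chip lot 3, the adipocyte covariate, and without each E clone in turn (0 to 0). It was 2 with pseudocount 64, 1 with the mean of all probe sets, 5 with scan session as a block, 1 with chip lot as a block, 2 within scan session 1, 4 without A3 and A5, and 2 at a threshold of 0.1. With array weights it was 1514 (772 higher), where E1 weighed 4.21, E3 1.62 and E4 1.19. In settings chosen after seeing the data it was 0 within the shared session, scanner and lot and 0 without F4. The fit within fluidics station 3 was not run, since F4 is its one other clone.

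Ucp1 in E against other inguinal clones differed by -0.03 and turned positive with pseudocount 64 (0.033), within scan session 1 (0.02), within scanner 1 (0.073) and within the shared session, scanner and lot (0.025). Without 1 E clone it ran from -0.73 to 0.57, and no setting gave an exact permutation p under 0.165. The likeness of the E clones was 0.31 and ran from 0.17 to 0.34.

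The 90 genes followed over 25 fits were largely picked for their differences on these same arrays. A kept direction is therefore no independent support, and the share over all genes was not computed. Of these 90 genes, 84 kept their direction. The others turned in some setting: Cdkn1a (0.14), Bmpr1a (-0.20) and Ddit3 (0.057) with the probe set of highest SD, Letmd1 (-0.005) with the mean of all probe sets, and Letmd1 (-0.23), Gdf10 (-0.29), Bmpr1a (-0.093) and Tgfbr3 (-0.22) with fluidics station as a block. That block rests the comparison on F4, and under it the adipocyte list's median went from -0.32 to 0.54. Of 36 list medians, 14 moved in some setting by more than the SD among the other clones, 9 of them with fluidics station as a block. Among these 9, the medians of cholesterol synthesis (0.06) and of fatty acid oxidation (0.29) turned positive too. The median of the forskolin targets also turned positive under that block (0.04), but it moved by less than that SD. The causes were not tested. Precision is limited by 3 E clones with 1 array each, and dim genes by their signal over background. No paired analysis was possible because the labels give clones no shared replicate numbers.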

Other observations

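Runs of 3 or more neighbouring genes stood above all 20 other clones in each E clone, 2 runs in E1, 4 in E3 and 5 in E4. Of all genes tested, 2.35% in E1, 3.9% in E3 and 3.87% in E4 lay above all 20 others. Runs were counted in the E clones only, so whether other clones hold as many was not tested. In E4, one run held the interferon and interleukin receptor genes Ifnar2, Il10rb, Ifnar1 and Ifngr2, another the apoptosis inhibitors Birc2 and Birc3 with Tmem123, and another Cep76, Psmg2 and Ptpn2. Over the 317 measured genes of the chromosome that carries Cep76, the median difference from the others' median was 0.12 in E1, 0.21 in E3 and 0.32 in E4, against -0.22 to 0.20 in the other clones. E3 and E4 lay above all others there, and E1 within their range. Of 20 chromosomes, E3 and E4 each lay above all others on 4 and E1 on 0, and E1 lay below all others on 1. The neighbours Lrrc49, Larp6 and Uaca stood above all 20 others in both E1 and E4. The antiviral genes Oas2, Oas3 and Oas1e stood below all others in E4. These runs were found by searching all genes, the copy number of these lines was not measured here, and the runs were given no test.

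Of 31 unfolded protein response and Atf4 target genes, 5 stood higher at an unadjusted p under 0.05 (Pdia4, Pdia6, Edem1, Creld2 and Manf). At that level 3 stood lower (Ddit3, Atf3 and Sesn2), and both directions made up 25.8% against 7.97% of all genes. Atf3 was also counted in the forskolin list and Sesn2 among the p53 targets, so the shares of these lists are not separate observations. The differences of 15 of the 31 were above 0, the median was -0.01, and none passed the adjusted test. Manf, a secreted protein of the reticulum, was at 12.66, 12.73 and 12.82 in E1, E3 and E4 against 11.79 to 12.82 in the others (median 12.27). Ddit3, the stress transcription factor CHOP, was at 11.13, 10.89 and 11.33 against 10.87 to 12.87 (median 12.02). Rarg, a retinoic acid receptor, was at 10.50, 10.44 and 10.22 against 8.99 to 10.33 (median 9.63), and Stra6, a retinol transporter, at 5.02, 4.74 and 4.75 against 4.53 to 6.20 (median 5.55). Of 16 circadian clock genes 2 stood lower (Nr1d1 and Tef) and 0 higher, or 12.5% against 7.97% of all genes (3.2% lower).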
